A study of Mus musculus with 2 samples.

Results

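The TAM family is named for 3 receptor tyrosine kinases, Tyro3, Axl and Mertk, and it was examined here together with its classical ligands Gas6 and Pros1. All probe sets annotated to exactly 1 of these 5 genes were taken, which gave 8 of the 45101 probe sets on the array. Axl, Tyro3 and Gas6 had 2 probe sets each and Mertk and Pros1 had 1 each. No probe set named a member together with another gene.

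TAM receptors sit on phagocytes and recognise phosphatidylserine, a lipid that dying cells expose on their surface. They do not touch the lipid themselves. Gas6 and Pros1 (protein S, also an anticoagulant cofactor) bind it through domains that carry vitamin K-dependent carboxylated glutamates, and their other end engages the receptor. In macrophages Mertk is the member best known for the uptake of apoptotic cells, Axl is known from inflamed and interferon-exposed cells, and Tyro3 is studied mostly in the nervous system and in dendritic cells. Signals from these receptors also restrain cytokine production.

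The cells were RAW264.7, a mouse macrophage-like line, carrying murine LXRα introduced by chemical transfection and kept as a stable line. The LXRα gene is Nr1h3 and its product is a sterol-sensing nuclear receptor that pairs with retinoid X receptors. One culture received GW3965, a synthetic LXR agonist, at 1 µM together with LG268, an RXR agonist, at 100 nM for 24 h, and the other received the solvent DMSO for 24 h. Both carried the introduced receptor, so the comparison is of receptor activation by ligands within LXRα-expressing cells. The 2 ligands were given only in combination. The sources used here do not say whether the line was 1 clone or a pool. Each condition was read on 1 Affymetrix mouse expression array, so no replicate spread and no test exist, and every difference below is between these 2 arrays.

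Signals are MAS5 intensities in arbitrary units, with the same 2% trimmed mean of 2500 on both arrays. A floor of 276.4, the median of all probe sets other than controls, was used as the lower limit of a usable signal, and a gene was called measured when its brighter signal exceeded the floor. Of 18193 genes, 11077 were measured. A probe set's log2 ratio had an SD of 0.28, estimated from how far the 2 brightest probe sets of a gene differed (4866 genes), and of 0.39 over the 1465 genes with both probe sets at a brighter signal 2 to 10 times the floor. That range was chosen after the values were seen and contains the brighter signals of the measured members. Either SD drew only on ratios whose ligand and DMSO signals each exceeded the floor. Mertk, under the floor with DMSO, did not meet that condition. These SDs cover measurement within the arrays and not variation between cultures. All 10 macrophage markers examined, among them Csf1r, Cd68 and Lyz2, were measured, and with the ligands 2 of them, Mpeg1 (2.03-fold) and Fcgr1 (1.53-fold), were higher by 1.5-fold or more. The markers of 6 other lineages, 30 genes on the array, were measured in 7 cases, 6 of them above the floor on 1 array only, where a ratio is no more than a bound. The highest signal among the 30 was 411.1, for Cd8a with DMSO, each gene taken by the probe set with the highest mean log2 signal. The fibroblast marker Dcn was not measured by that rule, but 1 other probe set of it was, with a log2 ratio of -0.25. Known LXR target genes were higher with the ligands, with Abca1 at 81159 against 2989 with DMSO and Abcg1 at 21913 against 5844.

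The promoter sequences of the 3 members that were measured are shown first, because these genes were all higher with the ligands. Each is the 250 bases upstream of the RefSeq start in GRCm38.p6, read 5′ to 3′ on the strand of the gene. The Mertk window is chr2:128698665-128698914 on the plus strand, the Gas6 window is chr8:13494536-13494785 on the minus strand, and the Pros1 window is chr16:62854057-62854306 on the plus strand. Capitals mark nuclear receptor half-sites (AGGTCA or GGGTCA) and GC boxes (GGGCGG, the letters bound by Sp1-type factors), each searched on both strands. A match on the opposite strand appears as its reverse complement.
Mertk: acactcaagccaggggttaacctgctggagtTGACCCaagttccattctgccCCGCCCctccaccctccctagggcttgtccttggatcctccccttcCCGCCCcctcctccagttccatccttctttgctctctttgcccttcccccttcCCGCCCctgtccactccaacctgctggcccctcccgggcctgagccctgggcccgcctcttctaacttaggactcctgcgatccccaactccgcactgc
Gas6: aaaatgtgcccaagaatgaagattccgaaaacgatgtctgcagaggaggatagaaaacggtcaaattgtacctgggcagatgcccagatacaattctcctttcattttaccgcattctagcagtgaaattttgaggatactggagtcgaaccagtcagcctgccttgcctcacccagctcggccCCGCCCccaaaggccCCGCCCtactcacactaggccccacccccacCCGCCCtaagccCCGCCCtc
Pros1: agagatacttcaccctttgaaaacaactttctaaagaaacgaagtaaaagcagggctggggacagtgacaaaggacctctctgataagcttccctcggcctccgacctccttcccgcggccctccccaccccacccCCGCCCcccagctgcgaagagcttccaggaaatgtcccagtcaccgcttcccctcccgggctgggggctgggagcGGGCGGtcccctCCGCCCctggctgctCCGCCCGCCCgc

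LXR and RXR bind as a pair to direct repeats of such half-sites spaced by 4 bases. No exact repeat of this form, in any combination of AGGTCA and GGGTCA, was found in the windows of the 5 members, and 11 of the 32851 windows in the RefSeq table, which holds several for some genes, had one, which is 0.0335%. A lone half-site was found in the Mertk window and in none of the other 4, as GGGTCA on the strand opposite to the gene, 219 to 214 bases upstream of the start. Either half-site was present in 23.8% of all windows. Mertk had 3 GC boxes, Gas6 had 4 and Pros1 had 5, of which the 2 nearest the start overlap. Axl had 1 and Tyro3 had 3, and 32.7% of all windows held at least 1. The GC content was 63.6% for Mertk, 60% for Axl, 73.2% for Tyro3, 54.8% for Gas6 and 64.4% for Pros1, against a median of 52.4% over all windows. No letters TATAAA or CCAAT were found in any of the 5 windows, whereas 12.4% and 33.8% of all windows held them. Absence of these letters from 250 bases says nothing about binding elsewhere.

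Among the receptors, Mertk stood apart. Its probe set 1422869_at had a signal of 2313 with the ligands, against 273.3 with DMSO. The ligand signal was brighter than 71.1% of gene probe sets on its array, whereas the DMSO signal lay just under the floor and was brighter than 44.0%. Because the DMSO value was at the floor, the difference is a bound, and Mertk was at least 8.37-fold higher with the ligands, or 3.07 on the log2 scale. The bound was close to the ratio of the deposited signals, 8.46-fold. In RNA from a whole culture, more cells expressing a gene and more RNA per cell cannot be told apart.

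This difference was among the largest on the array. With each gene at its floored ratio, 8 of the 11077 measured genes had a higher one. At least 2-fold higher values were found for 1.67% of measured genes, and for 3.2% of the 2877 measured genes whose brighter signal was 2 to 10 times the floor. Of the 627 genes above the floor with the ligands only, 36 (5.74%) were at least 2-fold higher and 3 (0.478%) were at least 8-fold higher, Mertk included. The floored log2 ratio was 10.8 times the probe-set SD of 0.28 and 7.84 times that of 0.39. Neither SD covers a ratio with a DMSO signal under the floor. These 2 multiples therefore do not show how far the Mertk difference exceeded its own measurement spread. Mertk had 1 probe set, so no second measurement on these arrays bears on it.

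**Figure D1:**
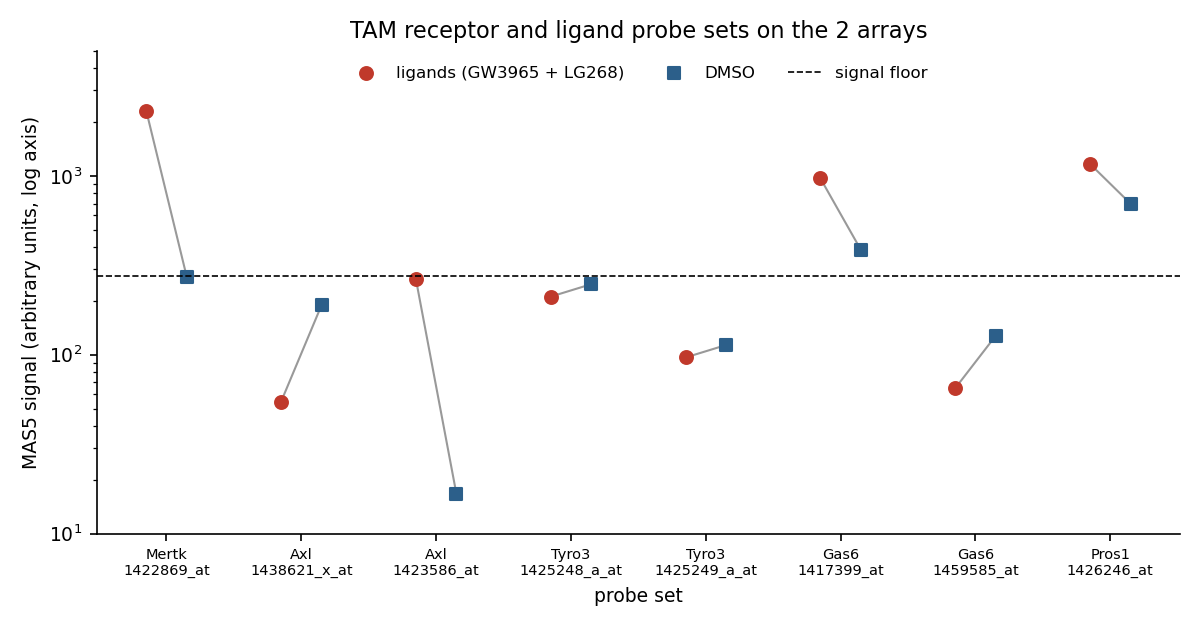
Deposited MAS5 signals (arbitrary units, log axis) of the 8 probe sets of the TAM receptors and ligands, with circles for the ligand array, squares for the DMSO array and a dashed line at the floor of 276.4. Mertk lay above the floor with the ligands only (2313 against 273.3 with DMSO), 1 probe set each of Gas6 and Pros1 lay above it on both arrays, and all probe sets of Axl and Tyro3 lay below it on both.

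The other receptors were not measured by the floor used here. Axl had signals of 264.1 with the ligands and 16.7 with DMSO by probe set 1423586_at. By probe set 1438621_x_at it had 54.6 with the ligands and 189.0 with DMSO. Both pairs were below the floor on both arrays, and Axl is therefore given no fold. The brighter array was not the same one for the 2 probe sets.

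The Axl signals can be read against all gene probe sets below the floor, which were not matched to them in signal. There were 14214 gene probe sets below the floor on both arrays, and 454 of them (3.19%) had deposited signals at least as far apart, in either direction, as those of 1423586_at. For 1438621_x_at the share was 32.1%. The name of the second ends in _x_at, which marks probes that may also detect other transcripts.

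Tyro3 had signals of 211.1 with the ligands and 247.7 with DMSO by probe set 1425248_a_at. By 1425249_a_at it had 96.5 with the ligands and 113.2 with DMSO. Both Tyro3 probe sets were below the floor on both arrays, and Tyro3 is therefore given no fold and no direction. As many as 86.9% of the probe sets below the floor had signals at least that far apart. Mertk was thus the only TAM receptor whose signal exceeded the floor on either array, and it did so on the ligand array.

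**Figure D2:**
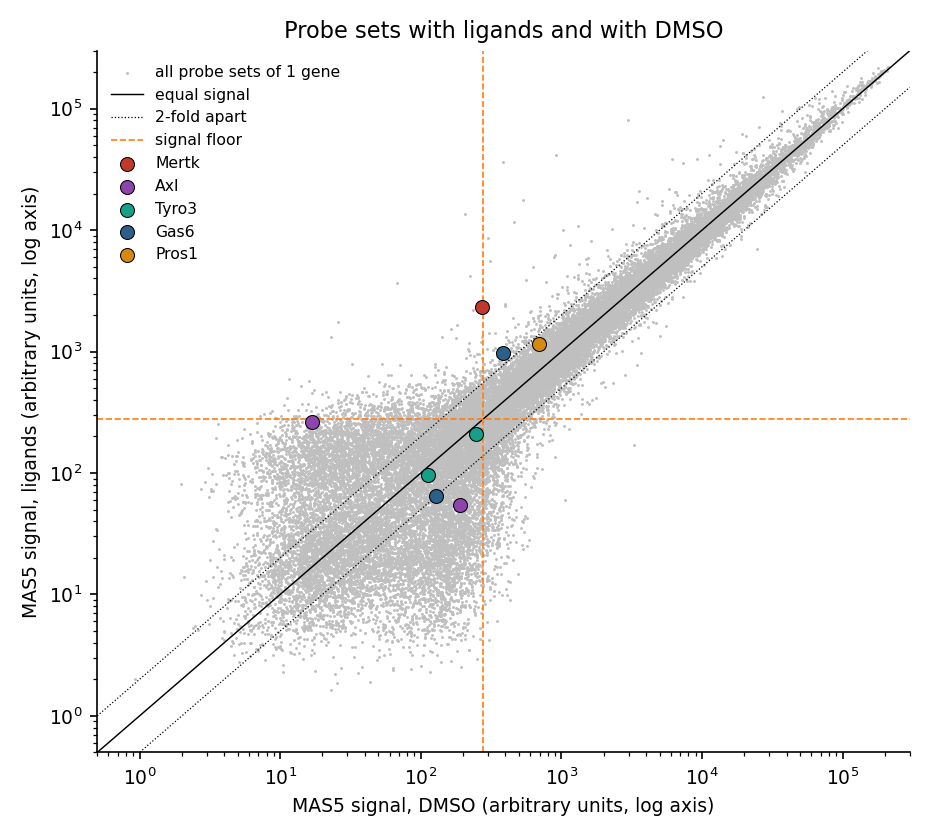
MAS5 signal with the ligands (vertical, log axis) against DMSO (horizontal, log axis) for all 34945 probe sets of 1 gene in grey and the 8 members in colour, with lines for equal signal, for 2-fold differences and for the floor. Below the floor the cloud is wide and holds both Axl and both Tyro3 points and 1 Gas6 point, while Mertk lies above the cloud at the edge of the floor and the other Gas6 point lies just beyond the 2-fold line.

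Of the ligands, Gas6 was the one past 2-fold. Probe set 1417399_at had a signal of 967.2 with the ligands and 385.5 with DMSO, both above the floor. That is a 2.51-fold higher value, 1.33 on the log2 scale, and 85 measured genes had a higher ratio. Of the 9769 genes above the floor on both arrays, 149 (1.53%) were at least 2-fold higher. Among the 2877 measured genes whose brighter signal was 2 to 10 times the floor, as for Gas6, the share was 3.2%. The log2 ratio of Gas6 was 4.68 times the probe-set SD over all genes and 3.40 times the SD of 0.39. The DMSO signal was only 1.39 times the floor. The second Gas6 probe set, 1459585_at, had 65.0 with the ligands and 127.6 with DMSO. It was below the floor on both arrays, with the brighter signal on the other array than for 1417399_at, and 54.3% of probe sets below the floor were at least as far apart.

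Pros1 had a signal of 1164 with the ligands and 698.4 with DMSO by its single probe set, 1426246_at. Both values were above the floor, and the ligand value was 1.67-fold higher, 0.74 on the log2 scale. It did not reach 2-fold, and 434 measured genes had a higher ratio. At least 1.5-fold higher values were found for 6.36% of measured genes, and for 10.6% of those with the brighter signal 2 to 10 times the floor. The log2 ratio was 2.60 times the probe-set SD of 0.28, and 1.88 times the SD of 0.39 of weaker signals.

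Of the 5 members, 3 genes were measured, by 1 probe set each, and all 3 were higher with the ligands, 2 of them by at least 2-fold. Over all measured genes, 46.2% had a higher value with the ligands and 1.67% were at least 2-fold higher. The other 5 probe sets lay below the floor on both arrays. Mertk passed the floor only through the array on which it was high. Signals of different probe sets cannot be set against each other, so the arrays do not rank the abundance of Gas6, Pros1 and Mertk.

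Genes that act with the TAM system were taken from lists of 61 genes, of which 58 had a probe set and 44 were measured. Values at least 2-fold higher were seen for 2 of the 44 and at least 2-fold lower for 0, beside 1.67% and 0.776% of all measured genes. At 1.5-fold the counts were 2 higher and 2 lower, beside 6.36% and 4.77%. Genes at the floor on 1 array were counted at their bound. Their median log2 ratio was 0.04, beside -0.03 for all measured genes. The lists were compiled from textbook knowledge.

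Of the 3 additional TAM ligands, 2 were measured. Lgals3, galectin-3, reported as a Mertk ligand, had signals of 156168 with the ligands and 148844 with DMSO, a log2 ratio of 0.07. Tub, a Mertk ligand of the tubby family, had 316.5 with the ligands and 163.4 with DMSO and was at least 1.15-fold higher, and its relative Tulp1 was below the floor on both arrays. Genes of the vitamin K cycle, which is needed for carboxylation of Gas6 and Pros1, were measured in 3 of 4 cases, and Nqo1 was below the floor on both arrays. The carboxylase Ggcx had 361.2 with the ligands and 224.4 with DMSO. The Ggcx signal with DMSO was under the floor, so it was at least 1.31-fold higher by this probe set. Its 2 measured probe sets had floored log2 ratios of 0.39 and -0.46, so its direction was not settled. Vkorc1, the epoxide reductase, had a log2 ratio of -0.13, and its relative Vkorc1l1 had 0.14.

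The proteases that shed TAM receptors from the cell surface were strongly detected on both arrays. Adam17, which cleaves Mertk, had signals of 11131 with the ligands and 12157 with DMSO, a log2 ratio of -0.13. Its 3 measured probe sets ranged from -0.44 to -0.13. Adam10, which cleaves Axl, had 15584 with the ligands and 16645 with DMSO, a log2 ratio of -0.09. The 3 probe sets of Adam10 ranged from -0.09 to 0.74.

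Signalling partners downstream of the receptors were measured in 23 of 25 cases, with a median log2 ratio of 0.03 and a range of -0.62 to 0.54. By the probe set representing each gene none was 2-fold apart. Pik3ca, another catalytic subunit of phosphoinositide 3-kinase, had a log2 ratio of 0.32 but ranged from -1.01 to 0.48 over 5 measured probe sets. Vav2 had 0.24 and 0.76 over its 2. The lowest was Ptk2b, the focal adhesion kinase relative Pyk2, at 3480 with the ligands and 5332 with DMSO, 1.53-fold lower, while its second probe set was at 0.06 on the log2 scale. The highest was Pik3cb, of the same kinase family as Pik3ca, at 2399 with the ligands and 1646 with DMSO, 1.46-fold higher. Vav3, an exchange factor for Rac, had a log2 ratio of -0.50, with its 3 probe sets between -0.50 and 0.29. Grb2, the adaptor bound by activated TAM receptors, had 0.16, and the GTPase Rac1 had 0.03. Lyn and Ptk2 were not analysed here.

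Of the genes through which TAM receptors restrain interferon and cytokine signalling, 6 of the 9 with a probe set were measured, all within 1.5-fold. Socs3, a feedback inhibitor of JAK-STAT signalling, had 1460 with the ligands and 2189 with DMSO, a log2 ratio of -0.58. Over 3 measured probe sets Socs3 spanned -0.58 to 0.50. Socs1, Twist1 and Twist2 were below the floor on both arrays. Ifnar1, a receptor chain for type I interferon that TAM receptors work with, had a log2 ratio of 0.12, and the associated kinases Jak1 and Tyk2 had 0.05 and 0.38.

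Both genes past 2-fold lay among the other phosphatidylserine receptors and bridging molecules, where 8 of 17 genes were measured, 3 with positive and 5 with negative ratios. Stab1, the scavenger receptor stabilin-1, had 635.2 with the ligands and 105.9 with DMSO and was at least 2.30-fold higher. Cd36, a scavenger receptor, had 44247 with the ligands and 17499 with DMSO, 2.53-fold higher, with its 3 probe sets between 0.28 and 1.75 on the log2 scale. Mfge8, the bridging protein that links phosphatidylserine to integrins, had 6397 with the ligands and 10732 with DMSO, 1.68-fold lower, opposite to the bridging proteins Gas6 and Pros1. Its integrin receptor chains Itgav and Itgb5 had log2 ratios of -0.12 and 0.14, and Itgb3 was below the floor on both arrays. Adgrb1 was above the floor with DMSO only and at least 1.35-fold lower with the ligands. Timd4, Stab2, Megf10, Scarf1, C1qa, C1qb, C1qc and Thbs1 were below the floor on both arrays.

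**Figure D3:**
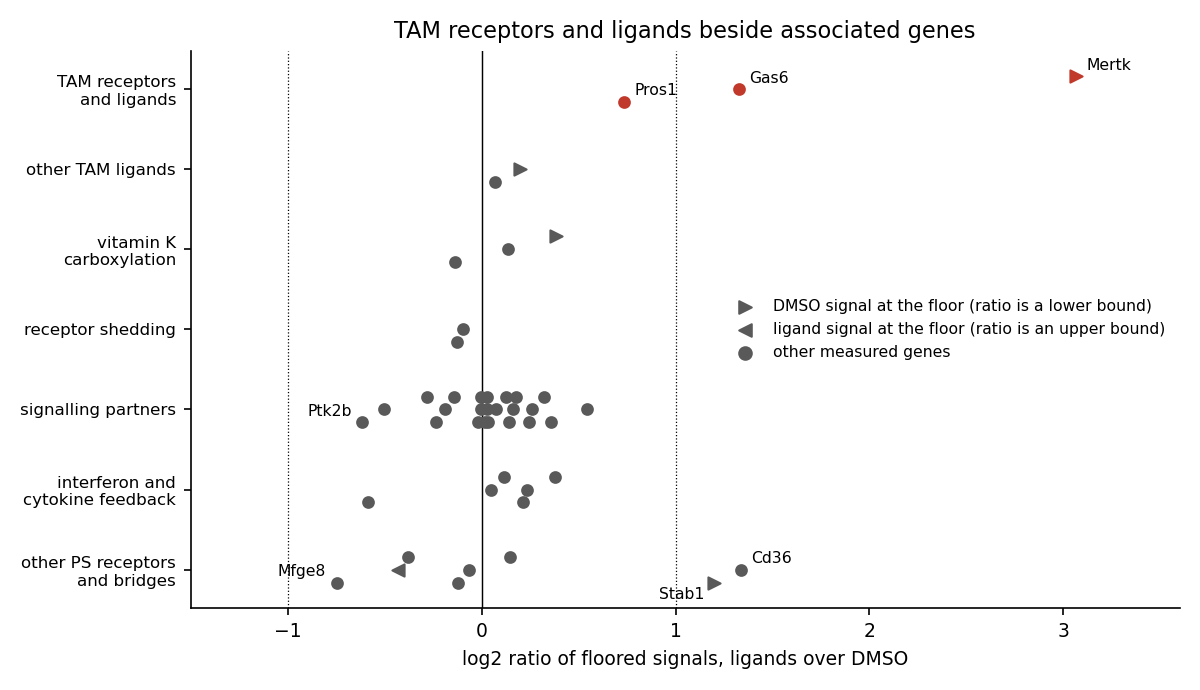
Log2 ratio of floored signals, ligands over DMSO, for the measured TAM receptors and ligands (red, top row) and the measured associated genes by list (grey), with dotted lines at 2-fold and triangles for genes at the floor on 1 array. Mertk lies furthest right at 3.07, Gas6, Cd36 and Stab1 lie beyond the 2-fold line, and the 23 signalling partners lie between -0.62 and 0.54.

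With RIKEN clones and predicted genes passed over, the genes whose ratio was closest to that of Mertk were Dusp6, Igf1, Tgm2, Abcc3 and Tmem86a. Likeness was the absolute difference in log2 ratio between the 2 arrays, which is 1 value per gene, and the ratio of Mertk is a lower bound. Dusp6, a phosphatase of ERK kinases, was closest, at 10736 with the ligands and 1317 with DMSO, 8.15-fold higher. The others lay within 0.33 of Mertk on the log2 scale, and all 5 were above the floor on both arrays. The LXRα gene Nr1h3, by a single probe set which may read endogenous as well as transfected Nr1h3 RNA (not stated in the sources used here), had 5577 with the ligands and 3150 with DMSO, 1.77-fold higher, a smaller ratio than that of Mertk or Gas6 and near that of Pros1. Its part in these differences was not tested.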

How the data were processed

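Biotin-labelled RNA from 1 ligand-treated and 1 DMSO-treated culture was hybridised to 2 arrays. The deposited values are linear intensities, 1 per probe set, and were produced by MAS5 (version not stated in the sources used here), per the submitters' processing notes. Each array had been scaled to the same trimmed mean, so ratios are relative to most genes of the array, and no normalization was added. The values used here held no detection calls. MAS5 ratios of weak signals vary widely, which the floor limits.

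Gene names came from the platform annotation, with symbols of 34741 of 34945 probe sets with 1 gene updated by gene identifier to the GRCm38.p6 table. Where a gene had several probe sets, the one with the highest mean log2 signal stood for it. Signals under the floor were set to it before log2 ratios (ligands over DMSO) were taken. Promoters of all 5 members were matched by symbol in a RefSeq table of the same build. The procedure was tested on simulated data, with changes placed only in genes of stronger mean signal than any member. That test therefore does not cover calls at the signals of the members. Every member is named, associated genes at least 1.5-fold apart are named with their values, and other list members were named after their values were seen. The members and lists were chosen with earlier results of these data known. Alternatives were other floors, no floor with 32 added, quantile normalization, centring, other thresholds and other ways to represent a gene. The number of arrays limits the precision. Python 3.11.15, numpy 2.4.6, pandas 2.3.3 and matplotlib 3.10.9 were used.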

Additional observations from a re-analysis of the deposited data

How the results depend on the processing

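The ways to represent a gene were not applied to the members, which were followed by probe set. Averaging was therefore not tried for Gas6, whose second probe set had the brighter signal with DMSO, below the floor on both arrays. Under the alternative floors, no floor, quantile normalization and centring, the probe sets measured for Mertk, Gas6 and Pros1 were higher with the ligands. This held wherever they had a value. Their log2 ratios moved by more than the probe-set SD only for Mertk, to 0.082 with the floor at the 75th percentile (2186), where the bound has little room, and to 2.51 with a floor of 406.5, the median of probe sets with 1 gene symbol, an alternative chosen after seeing the data. Gas6 and Pros1 had no value with the floor at the 75th percentile. Gas6 stayed between 1.25 and 1.35 and Pros1 between 0.71 and 0.76 in the others. With no floor and 32 added, Axl had log2 ratios of 2.60 by 1 probe set and -1.35 by the other, and with the floor at the 25th percentile 1.91 and -1.43. Tyro3 had -0.20 and -0.18 with no floor, and -0.23 by each probe set with the floor at the 25th percentile. The second Gas6 probe set had -0.72 with no floor and -0.86 with the floor at the 25th percentile. The number of all genes at least 2-fold higher and lower, 185 and 86, was 1348 and 1335 with the floor at the 25th percentile, 71 and 13 at the 75th, and 1694 and 1685 with no floor. It was 705 and 528 at 1.5-fold and 55 and 14 at 3-fold. The number lower was 155 when probe sets of a gene were averaged and 51 with the floor of 406.5. Of the associated genes, 4 were at least 2-fold higher and 3 lower with the floor at the 25th percentile, 5 and 4 with no floor, and 1 was higher with the floor at the 75th percentile and with that of 406.5. Their median log2 ratio lay between 0.03 and 0.07 in all of these. No paired analysis was possible because each condition had 1 array, and for the same reason no array could be left out.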
